A study of Mus musculus with 10 samples.

Results

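The mesenchyme of the developing lower jaw was compared between E14.5 and E11.5 (E for embryonic day) in single-cell RNA counts of wild-type NMRI mouse embryos, with no engineered allele and no treatment in any group. The study's methods name whole mandibles as the E11.5 tissue and dissected lower incisor buds as the E14.5 and E16.5 tissue, whereas the labels call the tissue of all 3 stages developing incisor. Cells were chosen by their own counts, and a mesenchymal cell was a barcode with at least 700 genes, at most 20% of its UMIs (unique molecular identifiers, each standing for 1 RNA molecule) from mitochondrial genes, a UMI of at least 2 of *Prrx1*, *Twist1*, *Pdgfra* and *Col3a1*, and a UMI of at most 1 of *Cdh5*, *Kdr*, *Tyrobp*, *Fcer1g*, *Tnnt1*, *Epcam*, *Krt5* and *Krt14*, which mark endothelial, immune, muscle and epithelial cells. Of 22619 barcodes in the series, 5363 at E11.5 and 3924 at E14.5 met this definition, 81.6% and 64.4% of the cells of their stage that passed the quality limits. The same definition held for 2200 cells at E16.5, whose levels are set beside those of the other stages. Per the study's methods, several embryos and litters were used for each stage, and the labels list 4 samples for E11.5 and 4 for E14.5. The barcodes of a stage form 1 matrix that does not separate them, and how many embryos it holds is not known from the barcodes. Each stage was therefore 1 sample, no test between stages was possible, and stage, dissected tissue and library cannot be told apart.

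The definition was drawn from measured counts, and its 12 genes are described here and left out of every count of genes. At 2000 UMIs a cell, *Prrx1* was at 674 CPM (counts scaled to a total of 1000000) at E11.5 and 736 at E14.5, *Twist1* at 465 and 230 CPM, *Pdgfra* at 139 and 111 CPM, and *Col3a1* at 280 and 1302 CPM. At the edge of the definition, 1430 E11.5 cells and 1778 E14.5 cells had exactly 2 of the 4 mesenchymal markers, and 730 and 725 quality cells were left out with 1 marker. Exactly 1 of the 8 other markers was found in 309 and 494 of the mesenchymal cells, while 29 and 84 cells were left out for 2 of them. More cells stood close to the edge at E14.5, where 462 cells had all 4 markers against 1876 at E11.5. Markers were counted before thinning, at the unequal depths given below, and the part of depth in this was not tested. The libraries of E11.5 and E14.5 shared 13 barcodes, 7 of them among the mesenchymal cells.

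Depth differed between the stages. The median cell had 6212 UMIs and 2300 genes at E11.5 (range 864 to 68704 UMIs) and 3511 UMIs and 1467 genes at E14.5 (range 1043 to 25642). Every cell was therefore thinned at random to 2000 UMIs, which kept 4971 cells at E11.5 and 3482 at E14.5 and left out 392 and 442 shallower ones, and the median cell then had 1062 and 987 genes. A level is the CPM of a gene over the summed UMIs of these cells, with an exact Poisson interval, and a log2 ratio is that of E14.5 over E11.5 after adding 10 CPM to both. Intervals are at the 95% level and cover counting error only. Their half-width on the log2 scale was 0.13 for the median gene and 0.17 at the 95th percentile of the genes compared.

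Jaw mesenchyme descends from cranial neural crest cells that fill the mandibular arch. In the early arch, homeobox and other transcription factors give these cells a position along the proximal-distal and oral-aboral axes, and much of the tissue is still dividing. Later, mesenchyme around the tooth bud condenses and exchanges BMP, activin, FGF and Wnt signals with the epithelium, giving rise to the dental papilla and follicle, while mesenchyme nearby lays down a collagen-rich matrix and forms the membranous bone of the jaw. Cartilage of the arch, chiefly Meckel's cartilage, arises from a separate set of these cells.

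Markers of mesenchyme outside the definition were abundant at both stages. Of 15 such genes, 14 had a UMI in at least 10% of the cells of either stage, and the summed level of the list was 1336 CPM at E11.5 and 3995 CPM at E14.5. Single members were not all abundant at both stages. Log2 ratios of the 14 ranged from -1.58 to 3.68, and a *Postn* UMI was found in 4.18% of E11.5 cells. Marker lists of other cells were low by comparison. The 12 immune markers summed to 2.41 CPM at E11.5 and 4.45 CPM at E14.5, the 11 endothelial markers to 34.6 and 63.3 CPM, the 15 muscle markers to 10.9 and 11.49 CPM, the 8 pericyte markers to 36.3 and 38.9 CPM and the 13 epithelial markers to 7.74 and 65.6 CPM. Defining genes without a single UMI were *Csf1r*, *Lyz2*, *Cx3cr1* and *Ctss* (immune), *Acta1* and *Myh3* (muscle) and *Krt17* (epithelium) at E11.5, and *Ptprc*, *Csf1r* and *C1qb* (immune) and *Myod1*, *Myog* and *Mymk* (muscle) at E14.5. Epithelial and glial or neural RNA (27.3 and 107 CPM over 12 genes) was higher at E14.5. Within the neural list 1 gene passed the detection limit, *Stmn2*, at 0.503 CPM at E11.5 and 90.3 CPM at E14.5. Globin RNA, which is made by red blood cells, summed to 2229 CPM at E11.5 and 9031 CPM at E14.5. The part of these other RNAs in the results was not tested. The libraries also differed in Y-linked RNA, with 0 UMIs of *Ddx3y* at E11.5 and 165 at E14.5, so that the sex of the embryos, too, cannot be told apart from stage, and autosomal genes alone were compared.

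Autosomal genes were compared where at least 10% of the cells of either stage had a UMI, which left 2918. Of these 155 (5.31%) were at least 2-fold higher at E14.5 and 116 (3.98%) at least 2-fold lower. At the 4-fold level, 60 genes were higher and 21 lower, and at the 8-fold level 22 and 10. The median log2 ratio over all 2918 genes was -0.18, so that a typical gene took a smaller share of the RNA at E14.5, and ratios are best read against that shift. When the stages were scaled by the median ratio of all genes in place of the total, 208 genes were higher and 77 lower, which moved the higher share of the called genes from 57.2% to 73.0%. Ribosomal protein genes took 250325 CPM at E11.5 and 307352 CPM at E14.5, and mitochondrial genes 42590 and 20427 CPM. The levels just inside and outside the 2-fold limit were log2 ratios of 1.002 and 0.991 above it and -1.002 and -0.998 below it, so the limit cut through a continuous range. For the counts given below without the detection limit, 364 (2.05%) of 17750 genes with a UMI were higher and 215 (1.21%) lower.

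**Figure D1:**
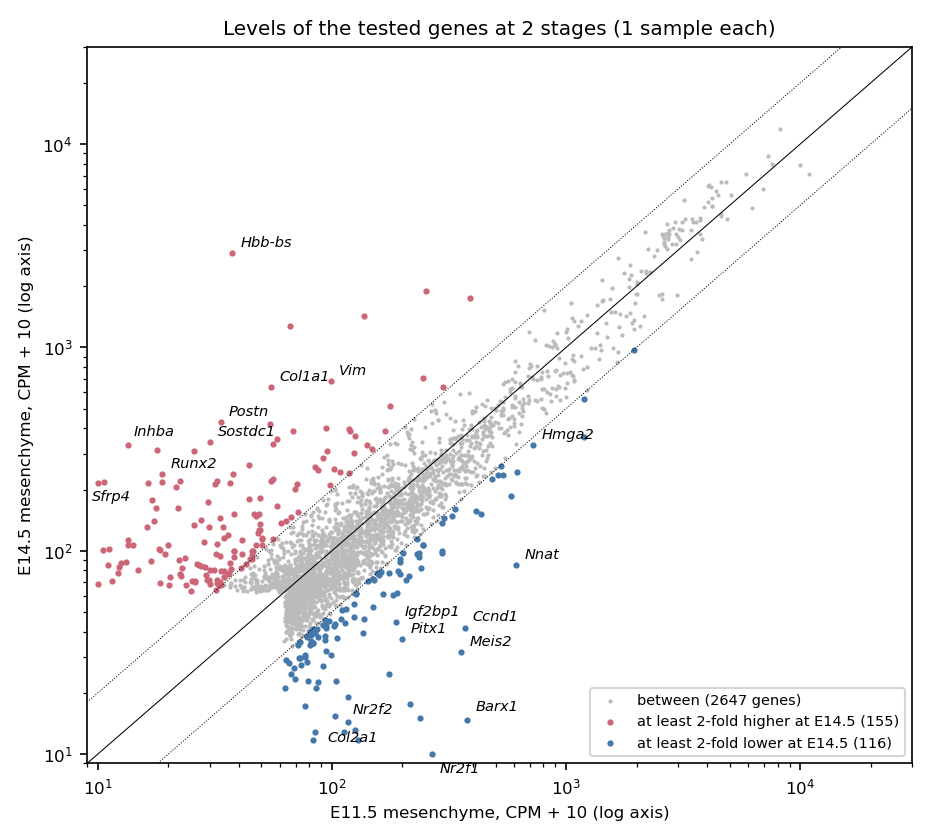
Level of each of 2918 tested genes in the mesenchyme of E11.5 (horizontal, CPM + 10, log axis) and E14.5 (vertical, CPM + 10, log axis), each stage 1 sample. Red points are the 155 genes at least 2-fold higher at E14.5, blue points the 116 at least 2-fold lower, grey points the 2647 between, and dotted lines mark the 2-fold limits. *Nr2f1* sits at the lower edge, with no UMI in the thinned E14.5 cells.

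Most of the genes past the limit were found in a minority of cells. The higher genes had a UMI in a median of 18.5% of E14.5 cells, and 9 of the 155 in over 50% of them. The lower genes had a UMI in a median of 18.97% of E11.5 cells, and 10 of the 116 in over 50%. Over all tested genes the medians were 17.6% at E11.5 and 16.1% at E14.5, close to those of the called genes. Cells without a UMI at this depth cannot be told from cells without the RNA, and fewer cells of a type and less RNA per cell cannot be told apart in the sums.

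The E16.5 levels of most genes, called or not, stood nearer to those of E14.5. Of the 155 higher genes, 151 had an E16.5 level nearer to that of E14.5 than to that of E11.5 on the log scale (97.4%), as did 111 of the 116 lower genes (95.7%) and 2363 of all 2918 tested genes (81.0%). The E14.5 and E16.5 tissue was dissected alike, while the E11.5 tissue was not, so this does not separate age from dissection.

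The 15 largest ratios belonged to *Inhba*, *Sfrp4*, *Lgals7*, *Penk*, *Emp3*, *Postn*, *Runx2*, *Fos*, *Col1a1*, *Col6a2*, *Sostdc1*, *Col6a1*, *Lmna*, *Lum* and *Tagln2*, leaving out predicted genes and the marker lists of other cells. *Inhba* (ENSMUSG00000041324, GRCm38 chr13:16011851-16031621, plus strand), which encodes the subunit of activin A, was at 3.42 CPM at E11.5, 323 CPM at E14.5 and 148 CPM at E16.5 (log2 ratio 4.63, interval 4.48 to 4.76). *Sfrp4* (ENSMUSG00000021319, chr13:19623104-19632994, plus strand), a secreted Wnt antagonist, had 0 UMIs in 4971 E11.5 cells and was at 206 CPM at E14.5 and 223 CPM at E16.5, at least 682-fold higher at E14.5 against the limit of 3 counts that a count of 0 allows. These genes were close to absent at the early stage and abundant later. *Lgals7*, encoding galectin-7, was at 0.604 and 207 CPM, and *Penk*, the precursor of enkephalin peptides, at 7.95 and 303 CPM, each with a lower level at E16.5 (61.1 and 69.1 CPM). *Lmna*, encoding the nuclear lamins A and C, was at 12.4 and 209 CPM. *Emp3*, a small membrane protein gene, was at 6.44 and 205 CPM, and *Tagln2*, an actin-binding protein gene, at 7.64 and 152 CPM. For none of the last 3 was the E16.5 level below that of E14.5.

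The 15 smallest ratios belonged to *Nr2f1*, *Barx1*, *Nr2f2*, *Meis2*, *Asb4*, *Mecom*, *Ccnd1*, *Col9a1*, *Col2a1*, *Nnat*, *Car14*, *Lix1*, *Chd7*, *Foxp2* and *Gsc*, of which 8 encode transcription factors or chromatin regulators. The share of such genes among all tested genes was not counted. *Nr2f1* (ENSMUSG00000069171, chr13:78188973-78199757, minus strand), an orphan nuclear receptor, was at 256 CPM at E11.5 and had 0 UMIs in 3482 thinned E14.5 cells. It was 595-fold lower when the count of 0 is set to the limit of 3 counts. Without thinning, 0.178% of E14.5 cells had an *Nr2f1* UMI, so this fold belongs to the thinned counts and is not a firm lower bound. *Mecom*, a zinc finger factor gene, was at 115 CPM at E11.5 and 3.16 CPM at E14.5, *Chd7*, a chromatin remodeller gene of neural crest development, at 93.2 and 5.46 CPM, and *Lix1* at 165 and 14.8 CPM. *Car14*, which encodes a carbonic anhydrase, was at 73.1 and 1.72 CPM. All 15 were at 75.2 CPM or less at E14.5, from 73.1 CPM or more at E11.5.

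Sequence before the start site was available from RefSeq for 10 of the 15 genes of largest and 11 of the 15 of smallest ratio, in windows from 250 bases before to 50 after each start. The motif TATAAA, the core of a TATA box, was searched on both strands. It was found for 4 of the 10 (40%) and 2 of the 11 (18.2%), against 4234 of 27025 genes in the whole table (15.7%). The 170 bases before the start are shown for these 6 genes because they bear on the genes of largest change, with the motif in capitals, 5′ to 3′ on the strand of the gene and in GRCm38.p6 coordinates.
Postn (chr3:54360937-54361106, plus strand): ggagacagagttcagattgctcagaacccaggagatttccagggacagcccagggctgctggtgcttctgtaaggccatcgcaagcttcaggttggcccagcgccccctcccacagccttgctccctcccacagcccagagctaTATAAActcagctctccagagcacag
Fos (chr12:85473720-85473889, plus strand): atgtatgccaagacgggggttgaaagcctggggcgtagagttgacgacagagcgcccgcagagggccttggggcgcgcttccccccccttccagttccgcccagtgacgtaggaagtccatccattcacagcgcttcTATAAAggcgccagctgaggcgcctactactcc
Emp3 (chr7:45921427-45921596, minus strand): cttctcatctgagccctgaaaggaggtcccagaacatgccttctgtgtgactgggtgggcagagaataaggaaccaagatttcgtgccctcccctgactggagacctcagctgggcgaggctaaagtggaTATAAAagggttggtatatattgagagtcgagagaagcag
Inhba (chr13:16011681-16011850, plus strand): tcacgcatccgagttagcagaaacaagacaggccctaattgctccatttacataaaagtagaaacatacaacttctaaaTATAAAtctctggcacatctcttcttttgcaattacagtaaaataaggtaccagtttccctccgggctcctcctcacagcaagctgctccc
Meis2 (chr2:116064620-116064789, minus strand): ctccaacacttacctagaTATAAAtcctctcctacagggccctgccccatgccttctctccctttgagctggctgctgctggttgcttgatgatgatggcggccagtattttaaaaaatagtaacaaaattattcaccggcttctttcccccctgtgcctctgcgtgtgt
Gsc (chr12:104473237-104473406, minus strand): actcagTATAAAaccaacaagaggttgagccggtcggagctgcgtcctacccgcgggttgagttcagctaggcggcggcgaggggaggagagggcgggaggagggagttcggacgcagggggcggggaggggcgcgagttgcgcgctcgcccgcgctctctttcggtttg
The motif began 26 bases before the start in *Postn*, 33 in *Fos* and 40 in *Emp3*, and 91 in *Inhba*, 152 in *Meis2* and 164 in *Gsc*. A match describes the letters only, and too few of the other called genes were matched to a promoter for a comparison over all of them.

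Matrix genes made the broadest group on the higher side. Of 29 collagen genes, 14 were tested, of which 6 were at least 2-fold higher at E14.5 and 2 lower, with a median log2 ratio of 0.91 against -0.18 for all tested genes. Without the detection limit 9 of the 29 were higher and 3 lower, and the whole list summed to 1104 CPM at E11.5, 2956 CPM at E14.5 and 4583 CPM at E16.5. *Col1a1* (ENSMUSG00000001506, chr11:94936224-94953042, plus strand), the main chain of bone and dermal collagen I, was at 45.1 CPM at E11.5, 625 CPM at E14.5 and 1124 CPM at E16.5 (log2 ratio 3.53, interval 3.41 to 3.65). Its partner chain gene *Col1a2* was already at 292 CPM at E11.5 and reached 528 CPM at E14.5 (log2 ratio 0.83). The chains of collagen I were thus far apart in ratio.

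The genes of collagen VI, a network of fine filaments around cells, stood together. *Col6a1* was at 7.04 and 168 CPM, *Col6a2* at 8.85 and 207 CPM and *Col6a3* at 12 and 152 CPM (log2 ratios 3.39, 3.52 and 2.88). Of the collagen V genes, which control fibril diameter, *Col5a2* was at 44.4 and 408 CPM (log2 ratio 2.94) and *Col5a1* at 21.9 and 85.9 CPM (log2 ratio 1.59). Basement membrane collagen IV stayed under the limit, with *Col4a1* at 92.9 and 189 CPM and *Col4a2* at 43.9 and 89.2 CPM. Their log2 ratios after adding 10 CPM were 0.95 and 0.88, and 1.14 and 1.06 with median-ratio scaling, past the limit. The lower genes of this list were *Col2a1* and *Col9a1*, of cartilage.

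Collagen processing, proteoglycan and adhesive genes followed the fibrillar ones. Of 23 processing genes 8 were tested, of which 3 were higher and none lower (median log2 ratio 0.77), led by *Sparc*, a collagen-binding protein of bone and other matrices, at 58.4 and 378 CPM (log2 ratio 2.50, interval 2.39 to 2.62), and *Plod2*, a lysyl hydroxylase gene, at 48.4 and 157 CPM. The collagen chaperone *Serpinh1* was at 267 and 480 CPM, within 2-fold. Of 31 autosomal proteoglycan and elastic fibre genes 12 were tested, of which 5 were higher and none lower (median 0.82), and 11 were higher without the detection limit. Each tested member had a ratio above 0, from 0.34 for *Fbln1* to 3.26 for *Lum*.

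Lumican (*Lum*) and decorin (*Dcn*) bind fibrillar collagen, and the former was at 11.47 CPM at E11.5, 195 CPM at E14.5 and 498 CPM at E16.5, the latter at 4.83, 70.5 and 105 CPM. *Fbln2*, encoding fibulin-2, was at 85.3 and 298 CPM, and *Fbn1*, encoding fibrillin-1, at 28.1 and 83.4 CPM, while *Fbn2* was at 141 and 187 CPM. Of 26 adhesive protein genes 5 were tested and 2 were higher, *Postn* and *Nid1*, with 8 higher without the limit. *Postn*, encoding periostin of periosteum and tooth follicle, was at 23.4 CPM at E11.5, 417 CPM at E14.5 and 266 CPM at E16.5 (log2 ratio 3.68, interval 3.53 to 3.82). *Fn1*, encoding fibronectin, was at 106 and 90.8 CPM, so the higher level of matrix RNA did not extend to it.

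**Figure D2:**
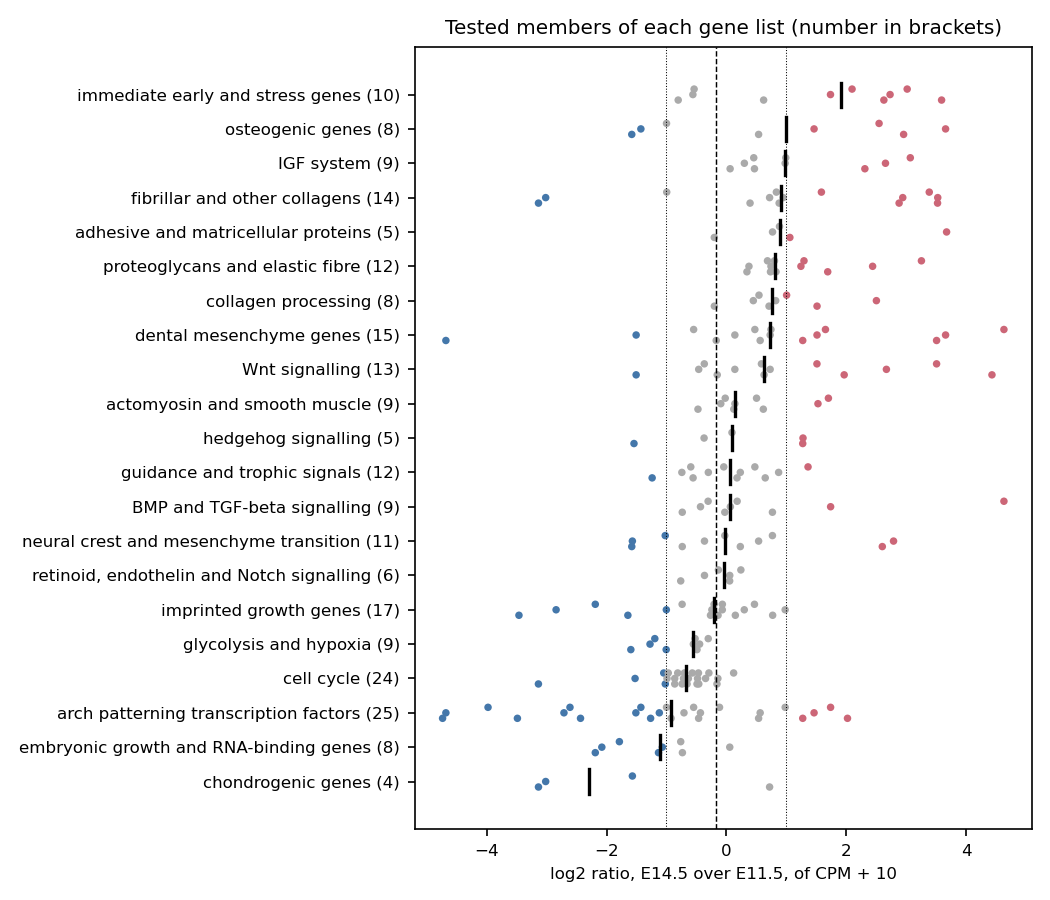
Log2 ratio of E14.5 over E11.5 (CPM + 10) for the tested members of each gene list, with the number tested in brackets. Red and blue points are genes at least 2-fold higher or lower at E14.5, black bars the median of a list, dotted lines the 2-fold limits and the dashed line the median of all tested genes (-0.18); immediate early, osteogenic, IGF and collagen genes stand to the right, arch transcription factors and chondrogenic genes to the left.

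Osteogenic genes split in direction. Of 21 autosomal genes 8 were tested, with 4 higher, 2 lower and a median log2 ratio of 1.001, which was 0.58 over 10 genes without thinning and 0.25 over all 21 with no filter. *Runx2* (ENSMUSG00000039153, chr17:44495987-44814797, minus strand), the transcription factor required for osteoblasts, was at 8.85 CPM at E11.5, 228 CPM at E14.5 and 281 CPM at E16.5 (log2 ratio 3.66, interval 3.49 to 3.81). *Alpl*, encoding the alkaline phosphatase of mineralising cells, was at 1.01 and 75.5 CPM, and *Mef2c*, a transcription factor gene of skeletal and muscle cells, at 19.6 and 163 CPM. The RNA of mineralising matrix was under the detection limit. *Ibsp*, encoding bone sialoprotein, had 0 UMIs at E11.5 and reached 72.1 CPM at E14.5 in 4.37% of cells, *Spp1* (osteopontin) was at 0.604 and 25.6 CPM, and *Sp7* (osterix) at 1.01 and 12.1 CPM. The lower genes were *Dlx6* (56.6 and 14.8 CPM) and *Twist2* (59.7 and 13.4 CPM), which also pattern or restrain early mesenchyme. *Dlx5*, at 97.8 and 43.9 CPM, was just inside the limit after adding 10 CPM (log2 ratio -0.998).

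*Runx2* and *Col1a1* were found in many more cells than *Ibsp*. At 2000 UMIs, 32.0% of E14.5 cells had a *Runx2* UMI (exact interval 30.4 to 33.5) against 1.75% at E11.5, and 59.1% had a *Col1a1* UMI against 8.29%. In 90 endothelial cells of E14.5, which should lack these RNAs, the shares were 2.22% and 4.44% (median depth 4193 UMIs), and in 42 erythroid cells 9.52% and 33.3% (median depth 6070.5 UMIs). The mesenchymal shares were above both, and the *Col1a1* share of erythroid cells was the highest background found for it. Of E14.5 cells with a *Runx2* UMI, 6.83% had an *Ibsp* UMI against 3.21% of the others.

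Genes of dental mesenchyme were mostly on the higher side, with *Barx1* the member of smallest ratio. Of 31 genes 15 were tested, with 6 higher, 2 lower and a median log2 ratio of 0.73, and 10 were higher and 4 lower without the detection limit. The higher ones were *Inhba*, *Runx2*, *Sostdc1*, *Pax9*, *Enpp2* and *Osr2*. *Pax9*, a paired box factor needed for teeth to pass the bud stage, was at 17 CPM at E11.5, 75 CPM at E14.5 and 179 CPM at E16.5. *Msx1*, likewise needed at the bud stage, was at 204, 307 and 345 CPM, within 2-fold (log2 ratio 0.56, interval 0.48 to 0.65). *Osr2*, which limits the tooth field, was at 19.7 and 61.9 CPM. *Bmp4*, an early signal of dental mesenchyme, was under the detection limit with 13.1 and 54.7 CPM, as was *Fgf3*, with 0.101 and 20.2 CPM. *Lhx8* was at 72.3 and 46.4 CPM, and *Lhx6*, also an early oral jaw factor, at 26.3 and 0.862 CPM. The 2 lower genes were *Axin2*, described with the Wnt genes, and *Barx1*, a homeobox factor of molar mesenchyme, at 368 CPM at E11.5 and 4.74 CPM at E14.5.

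Signalling genes differed by pathway and by role. Of 43 Wnt pathway genes 13 were tested, with 5 higher and 1 lower, and 3 of the higher ones encode secreted antagonists. Beside *Sfrp4* these were *Sostdc1*, an inhibitor of BMP and Wnt signals, at 20.1 CPM at E11.5, 333 CPM at E14.5 and 528 CPM at E16.5, and *Wif1*, a Wnt-binding inhibitor, at 2.21, 67.8 and 202 CPM. The ligand *Wnt5a* was at 77.1 and 239 CPM and the R-spondin *Rspo3*, which enhances Wnt signals, at 13.6 and 82.1 CPM. The lower gene was *Axin2*, a direct target and feedback inhibitor of the canonical branch, at 95.5 and 27.1 CPM (log2 ratio -1.51, interval -1.68 to -1.33). Other antagonists stayed within 2-fold, *Frzb* at 46.8 and 77.8 CPM, *Dkk2* at 39 and 71.4 CPM and *Sfrp1* at 56.8 and 41.8 CPM. Receptor genes had ratios nearer 0, such as *Fzd2* at 162 and 115 CPM and *Lrp6* at 61 and 53.8 CPM.

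The shares of cells with a UMI gave the same contrast for the leading ligands and antagonists. *Inhba* was detected in 41.4% of E14.5 cells at 2000 UMIs (interval 39.7 to 43.0) and in 0.664% at E11.5, against 2.22% of endothelial and 9.52% of erythroid cells at E14.5. *Sfrp4* was detected in 24.5% (23.1 to 26.0) of E14.5 cells and in 0 of 4971 at E11.5, which allows a share of up to 0.0742%, and unthinned in 1 of 5363 E11.5 cells. Among E14.5 endothelial cells the *Sfrp4* share was 1.11% and among immune cells 0.943%, both chosen with the marker limit above. It was 21.4% (10.3 to 36.8) among the 42 erythroid cells, chosen without it. The mesenchymal share was thus not above the erythroid one beyond counting error. The erythroid cells held *Sfrp4* at 119 CPM against 206 CPM in the mesenchyme, and *Inhba* at 47.6 against 323 CPM.

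At E14.5 some of the leading genes were found together in cells more often than others, as described here without a test. Of cells with an *Lgals7* UMI, 58.6% had an *Inhba* UMI against 36.0% of those without, whereas 7.93% had an *Sfrp4* UMI against 29.7%. A *Sostdc1* UMI was found in 18.99% of cells with *Sfrp4* and in 37.5% of cells without it. A *Sostdc1* UMI was found in 38.0% of cells with *Inhba* and 29.4% of cells without, and a *Postn* UMI in 50.02% of cells with *Col1a1* and 28.7% of cells without. *Lgals7* was thus found with *Inhba* more often, and with *Sfrp4* less often, than in the remaining cells. *Sfrp4* and *Lgals7* were also concentrated, with 64.9% and 66.0% of their E14.5 UMIs in 10% of the cells, against 42.3% for *Inhba* and 38.0% for *Col1a1*. The points share 1 library and 1 depth.

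Genes of the IGF system stood on the higher side. Of 15 genes 9 were tested, 3 were higher and none lower, and the list summed to 840 CPM at E11.5, 1785 CPM at E14.5 and 2482 CPM at E16.5. The higher genes were *Igfbp7* (3.52 and 104 CPM), *Igfbp5* (28 and 229 CPM) and *Igfbp3* (9.45 and 86.6 CPM), whose products bind insulin-like growth factors, while *Igfbp4* (0.99) and *Igfbp2* (0.06) had log2 ratios within 2-fold. Between cells without cell cycle UMIs, described with the hedgehog genes, *Igfbp3* had the opposite sign, with a log2 ratio of -0.73. This value rests on at most 89 E11.5 cells and is given without an interval. The ligand *Igf2* was at 257 and 517 CPM, just under the limit after adding 10 CPM (log2 ratio 0.98, interval 0.91 to 1.05). The receptor *Igf1r* was at 109 and 137 CPM. With median-ratio scaling 5 of the 9 were past the limit. The median log2 ratio of the list was 0.98 over the 9 tested genes. It was 0.30 over 11 genes without thinning and 0.46 over all 15 with no filter.

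BMP and TGF-β genes centred near 0, with a median log2 ratio of 0.07 over 9 tested of 36 autosomal genes, of which 2 were higher and none lower. These were *Inhba* and *Fstl1*, a secreted follistatin-like glycoprotein, at 108 and 385 CPM. Targets of BMP signals differed, with *Id3* at 269 and 466 CPM, *Id2* at 244 and 240 CPM and *Id1* at 192 and 111 CPM, none past 2-fold. With the E11.5 cells chosen by *Msx1*, *Alx1* and *Barx1*, described with the patterning genes, *Id1* was at -1.24 (interval -1.38 to -1.10). Then 2 genes of the list were lower and its median was -0.38. Of the hedgehog list 5 of 16 genes were tested, with 2 higher, *Ptch1* and *Osr2*, and 1 lower. *Osr2* is a transcription factor gene and not a component of the pathway. It is counted with the dental mesenchyme and patterning genes too, so *Ptch1* was the only higher pathway gene. *Ptch1*, the receptor and a direct target of hedgehog signals, was at 114 CPM at E11.5, 292 CPM at E14.5 and 549 CPM at E16.5, and the target *Gli1*, under the detection limit, was at 12.7 and 44.9 CPM. The coreceptor *Gas1* was lower, at 229 and 72.1 CPM (log2 ratio -1.54), while the transducers *Gli3* (71.2 and 76.7 CPM) and *Smo* (79.9 and 59.4 CPM) had ratios nearer 0. Between cells without a UMI of 10 cell cycle genes (89 at E11.5 and 1175 at E14.5), *Gas1* had the opposite sign, with a log2 ratio of 0.94, and *Ptch1* was at 0.54.

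The FGF, retinoid, endothelin, Notch and guidance lists had 1 gene higher and 1 lower, close to the share over all genes. *Fgfr1* was the single tested gene of 22 in the FGF list, at 120 and 174 CPM. None of 6 tested genes of 30 was past 2-fold in the retinoid, endothelin and Notch list, where the median of -0.04 became 0.15 with median-ratio scaling, and *Crabp1*, a retinoic acid binding protein gene of neural crest, was at 373 and 389 CPM. In the guidance list 1 of 12 tested genes was higher, *Nrp2* (39.3 and 117 CPM), and 1 lower, *Sema3a* (73.2 and 25.3 CPM). The trophic factor genes *Ptn* and *Mdk* were among the most abundant secreted signals, *Ptn* at 1044 CPM at E11.5, 1642 CPM at E14.5 and 5037 CPM at E16.5 and *Mdk* at 1731, 1143 and 1535 CPM.

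**Figure D3:**
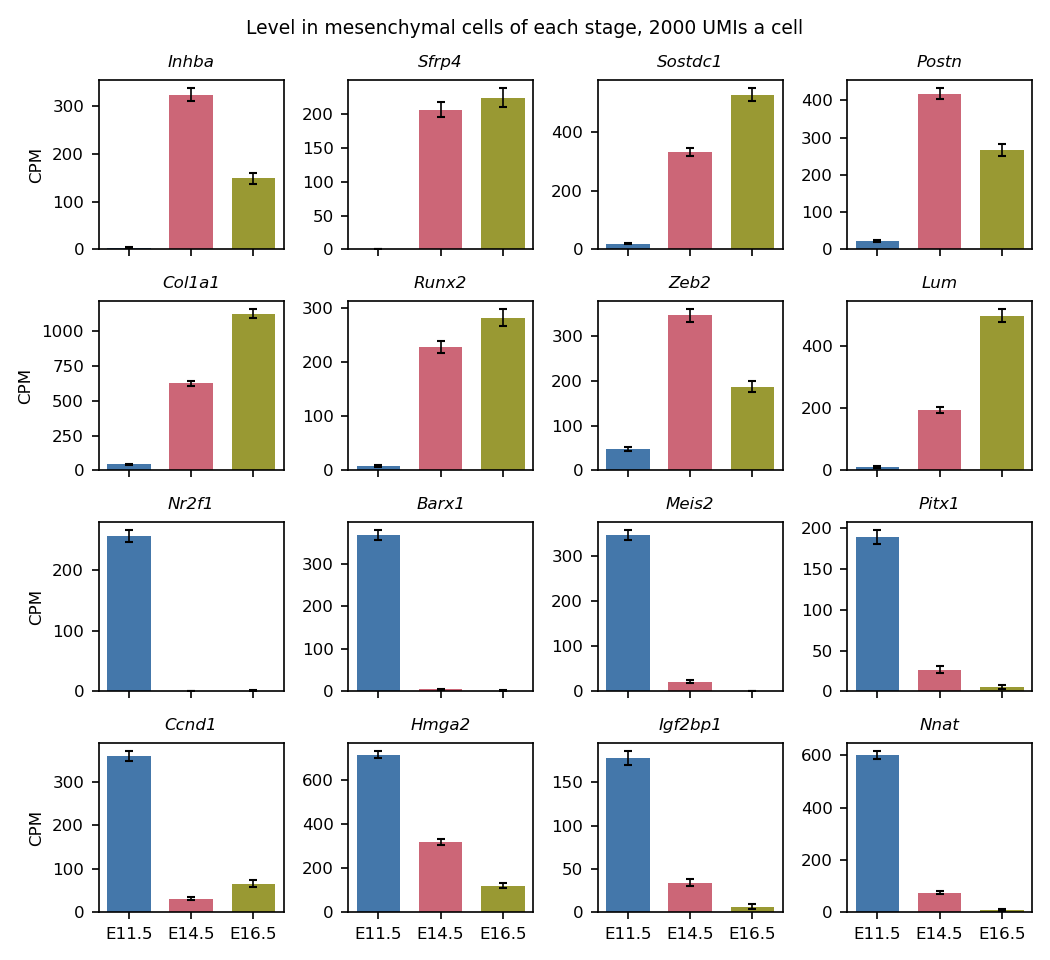
Level in CPM (linear axes from 0, a scale of its own in each panel) of 8 genes higher and 8 genes lower at E14.5, in the mesenchymal cells of E11.5, E14.5 and E16.5 thinned to 2000 UMIs a cell. Bars are the level of 1 sample per stage and whiskers the exact 95% Poisson interval, which covers counting error only; *Nr2f1*, *Barx1*, *Meis2* and *Pitx1* stay near 0 at E16.5, and *Col1a1*, *Lum* and *Sostdc1* are higher at E16.5 than at E14.5.

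Transcription factors that pattern the arch made the broadest group on the lower side. Of 53 autosomal genes 25 were tested, with 11 lower, 4 higher and a median log2 ratio of -0.92, against 3.98% lower and 5.31% higher over all genes, and without the detection limit 22 were lower and 5 higher. Their summed level was 4302 CPM at E11.5 and 2442 CPM at E14.5. *Barx1* (ENSMUSG00000021381, chr13:48662998-48666507, plus strand) had a log2 ratio of -4.68 (interval -4.84 to -4.50). *Nr2f2*, the relative of *Nr2f1*, was at 227 and 5.03 CPM, and *Meis2*, a homeobox factor, at 347 CPM at E11.5, 21.8 CPM at E14.5 and 0.691 CPM at E16.5. *Pitx1*, a factor of the mandible and hindlimb, was at 189, 26.9 and 5.30 CPM, *Foxp2* at 74.2 and 2.87 CPM, and *Gsc*, a factor of the arch skeleton and middle ear, at 107 and 9.19 CPM. *Zfhx3* (423 and 142 CPM), *Zfhx4* (286 and 126 CPM), *Foxp1* (182 and 69.9 CPM) and *Dlx6* were lower by smaller factors.

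Among the higher members were *Alx1*, *Pax3* and *Osr2*. *Alx1*, a homeobox factor of frontonasal and distal arch mesenchyme, was at 34.3 CPM at E11.5, 170 CPM at E14.5 and 205 CPM at E16.5 (log2 ratio 2.02, interval 1.88 to 2.16), and *Pax3*, an early neural crest factor, was at 25.8, 110 and 18 CPM. *Hand2*, a factor of the distal arch, was at 161 and 239 CPM and *Tbx3* at 60.7 and 42.4 CPM, both within 2-fold. *Prrx2*, at 124 and 254 CPM, was under the limit after adding 10 CPM (log2 ratio 0.98). *Foxd1*, *Tbx2* and *Osr1* were likewise between the limits, with log2 ratios of -0.92, -0.71 and -0.11.

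These factors were found together in E11.5 cells to different degrees, again a description without a test. At E11.5, 32.9% of cells had an *Nr2f1* UMI (interval 31.6 to 34.3), 38.2% a *Barx1* UMI, 41.1% a *Meis2* UMI and 25.7% an *Msx1* UMI, while endothelial cells of the stage had 0, 4.44%, 2.22% and 2.22% (45 cells, median depth 9670.5 UMIs). In 45 immune cells (7760 UMIs) the shares were 6.67%, 2.22%, 2.22% and 4.44%, and in 26 erythroid cells (10222.5 UMIs) 7.69%, 11.54%, 0 and 0. Of these cells only the erythroid ones were chosen without the limit on mesenchymal markers. *Msx1* was found in 14.8% of cells with *Barx1* and 32.5% of cells without it, and *Barx1* in 10.2% of cells with *Alx1* and 39.7% of cells without. *Nr2f2* was found in 46.9% of cells with *Nr2f1* and 21.0% of the others. A *Nr2f1* UMI was found in 42.5% of cells with *Barx1* and 27.0% of cells without, while *Meis2* was in 40.4% of cells with *Nr2f1* and 41.5% of cells without. *Nr2f2* was thus found more often in cells with *Nr2f1* than in those without, and *Barx1* less often with *Msx1* or *Alx1*. At E14.5 the shares were 0 of 3482 for *Nr2f1*, 0.804% for *Barx1* and 3.48% for *Meis2*, while *Msx1* was in 43.3%, against 1.11% of endothelial and 21.4% of erythroid cells of that stage.

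Because a whole mandible holds regions that an incisor bud does not, the comparison was repeated with E11.5 cells chosen by patterning genes, an alternative chosen after the data were seen. Where in the mandible these cells lay is not known from the data. The 1323 E11.5 cells with a UMI of *Msx1* or *Alx1* and none of *Barx1* were set against all E14.5 cells. Then 152 genes were higher and 118 lower, and 137 of the 155 higher and 88 of the 116 lower genes were still past 2-fold on the same side. Over all 2952 genes then tested, 5.15% were higher and 4% lower. All 15 matrix genes past 2-fold remained so, with *Col1a1* at a log2 ratio of 3.78, *Postn* at 3.74 and *Col6a1* at 3.13. Of 13 patterning factors past 2-fold, *Barx1*, *Msx1* and *Alx1* set aside because they chose the cells, 9 remained so. The choosing genes were not independent of the other factors. At E11.5 an *Msx1* UMI was found in 13.4% of cells with *Nr2f1* and 31.8% of cells without. For *Meis2* these shares were 19.2% and 30.3%. The part of the choice itself in the ratios was not tested.

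The ratio depended on the E11.5 cells for some genes more than for others, within the patterning list and outside it. *Nr2f1* went from -4.74 to -3.16, *Nr2f2* from -3.98 to -2.19 and *Pitx1* from -2.43 to -1.47, while *Meis2* (-3.49 and -3.35) and *Foxp2* (-2.71 and -2.56) stayed close. Of the list, *Pax3* (1.74 to 0.57), *Zfhx4* (-1.12 to -0.46), *Dlx6* (-1.43 to -0.93) and *Foxp1* (-1.26 to -0.81) were no longer past 2-fold. *Tbx2*, also of the list, went from -0.71 to -1.15, past the limit. Outside the list, *Sox9* (-1.57 to -0.31), *Wnt5a* (1.51 to 0.72), *Twist2* (-1.58 to -0.96) and *Cdh2* (-1.02 to -0.47) were no longer past it. The same held for *Nrp2* (1.36 to 0.85), *Btg1* (1.08 to 0.91) and *Hmga2* (-1.13 to -0.95). Between cells without cell cycle UMIs *Zfhx3* (0.55) and *Zfhx4* (0.55) had the opposite sign and *Dlx6* was at 0.07. These values rest on at most 89 E11.5 cells and are given without an interval. The ratio of *Osr1*, a relative of *Osr2*, went from -0.11 to 0.88. In all, 16 of 22 factors and 23 of 31 matrix genes moved nearer to 0. The share over all tested genes was not counted, so whether these counts are particular to either group is not known.

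**Figure D4:**
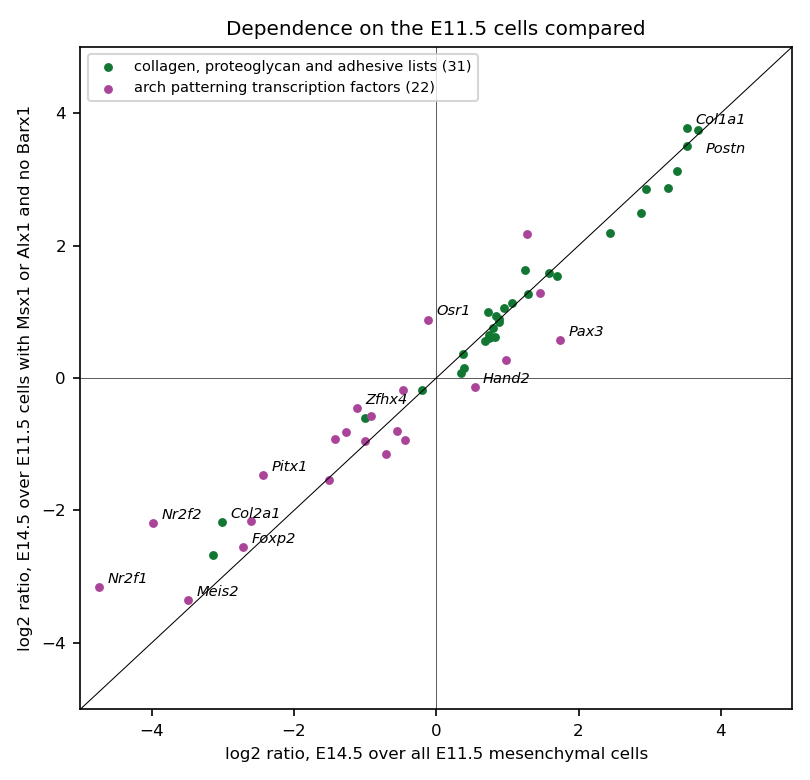
Log2 ratio of E14.5 over E11.5 with all E11.5 mesenchymal cells (horizontal) and with the 1323 E11.5 cells that had a UMI of Msx1 or Alx1 and none of Barx1 (vertical). Green points are 31 genes of the collagen, proteoglycan and adhesive lists, purple points 22 arch transcription factors, and the line marks equal ratios; *Nr2f1*, *Nr2f2* and *Pitx1* lie above the line, and *Postn* and *Col1a1* close to it.

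Few cartilage genes could be compared. Of 16 genes 4 were tested and 3 were lower, with a median log2 ratio of -2.29, but the median was -1.05 over 6 genes without thinning and -0.02 over 14 genes with no filter. *Col2a1*, the fibrillar collagen of cartilage, was at 107 CPM at E11.5, 4.45 CPM at E14.5 and 0.691 CPM at E16.5, and *Col9a1*, which coats its fibrils, at 103, 2.87 and 4.84 CPM. *Sox9*, the factor that drives cartilage, was at 127 and 36 CPM. *Col11a1*, shared by cartilage and other fibrils, was at 83.5 and 144 CPM, and *Acan* and the other late cartilage genes were under the detection limit at both stages. With the E11.5 cells chosen by *Msx1*, *Alx1* and *Barx1*, *Col2a1* stood at -2.18 and *Sox9* was no longer past 2-fold. Of the 2 genes then tested, 1 was lower. Among E11.5 cells a *Col9a1* UMI was found in 19.9% of those with *Col2a1* and in 15.6% of the others.

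Neural crest and mesenchyme transition genes had no common direction, with 2 of 11 tested higher, 3 lower and a median of -0.03, which became 0.17 with median-ratio scaling. *Zeb2*, a zinc finger repressor, was at 48.5 CPM at E11.5, 345 CPM at E14.5 and 186 CPM at E16.5, and *Vim*, encoding the filament protein vimentin, at 88.7, 673 and 874 CPM. *Cdh2* (N-cadherin), at 116 and 52.3 CPM, *Sox9* and *Twist2* were lower. *Vim* was at 1933 and 2333 CPM in endothelial cells of the 2 stages, so the low level at E11.5 was seen in mesenchyme and not in those cells. Of actomyosin genes 9 of 25 were tested and 2 were higher, *Tpm1* (236 and 699 CPM) and *Tpm2* (36.5 and 141 CPM), with *Myh10* at 251 and 178 CPM and *Acta2*, under the limit, at 1.71 and 17.8 CPM.

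Cell cycle RNA was lower, and it was uneven between cells. All 24 genes of the list were tested, with 4 lower, none higher and a median log2 ratio of -0.68, and they summed to 8790 CPM at E11.5, 5830 CPM at E14.5 and 4319 CPM at E16.5. With median-ratio scaling 2 of the 24 were past 2-fold and the median was -0.49. *Ccnd1* (ENSMUSG00000070348, chr7:144929931-144939925, minus strand), the G1 cyclin D1, was at 358 CPM at E11.5, 31.9 CPM at E14.5 and 65.4 CPM at E16.5 (log2 ratio -3.14, interval -3.29 to -2.98). Its relative *Ccnd2* was at 567 and 617 CPM. *Rrm2*, a ribonucleotide reductase gene, was at 197 and 62 CPM, the helicase gene *Mcm6* at 140 and 62.8 CPM and *Mcm2* at 73.1 and 31 CPM. Of the other 20 genes 19 had log2 ratios between -0.99 and -0.14, those of mitosis among them. *Mki67* was at 343 and 202 CPM and *Top2a* at 992 and 561 CPM. In endothelial cells the *Ccnd1* level was 478 CPM at E11.5 and 361 CPM at E14.5.

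Counted per cell, the list had a median of 17 UMIs of 2000 at E11.5 (10th to 90th percentile 8 to 27), 8 at E14.5 (1 to 27) and 4 at E16.5 (1 to 25). The upper end was thus level while the lower end dropped. No UMI of the first 10 genes of the list was found in 3.30% of E11.5 cells, 32.4% of E14.5 cells and 51.6% of E16.5 cells. Endothelial cells without one were 11.1%, 28.9% and 41.4%. Among the genes that restrain the cycle, *Cdkn1c* was at 918 and 877 CPM, *Btg1* was higher (139 and 305 CPM) and *Gas1*, counted with the hedgehog genes too, lower.

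**Figure D5:**
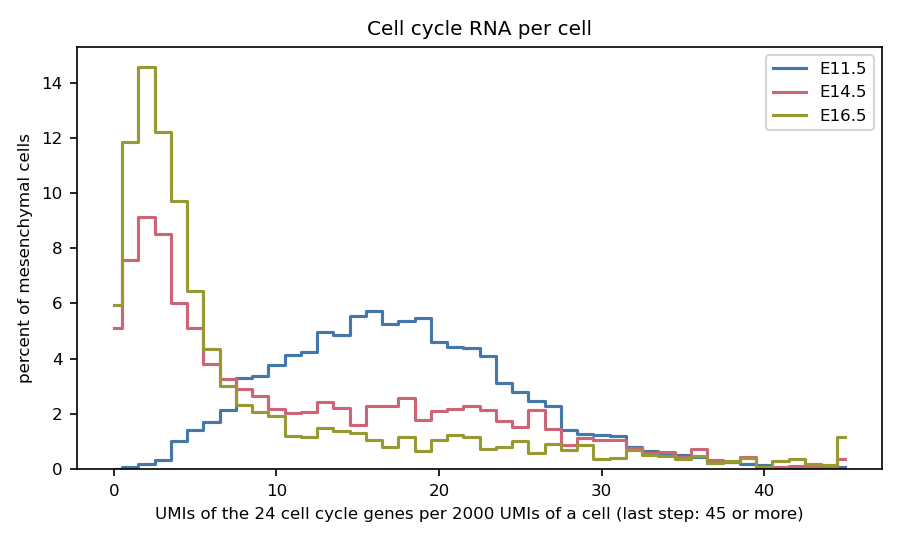
Percent of mesenchymal cells (vertical) with a given number of UMIs of 24 cell cycle genes among 2000 UMIs of the cell (horizontal; the last step holds 45 or more), for E11.5, E14.5 and E16.5, each 1 sample. The E11.5 cells form a single broad peak around 17 UMIs, and the E14.5 and E16.5 cells a peak at 2 UMIs with a long shoulder up to the range of E11.5.

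Genes of embryonic growth and RNA binding stood on the lower side. Of 23 genes 8 were tested, with 5 lower, none higher and a median log2 ratio of -1.10, and without the detection limit 9 were lower and 1 higher. With median-ratio scaling 3 of the 8 were lower and the median was -0.92. The list summed to 2248 CPM at E11.5, 1232 CPM at E14.5 and 802 CPM at E16.5. *Igf2bp1*, an RNA-binding protein gene of early embryos, was at 178, 34.5 and 6.68 CPM, *Igf2bp3* at 141, 61.9 and 28.8 CPM, and *Hmga2*, a chromatin protein gene of dividing embryonic cells, at 715, 321 and 122 CPM. *Lin28b*, which blocks let-7 microRNA maturation, was at 20.7 CPM at E11.5 and had 0 UMIs at E14.5, and *Trim71* was at 13 and 0.287 CPM. *Mycn*, an oncogene of growing embryonic tissue, was at 52.9 and 5.03 CPM. The first 3 were lower again at E16.5 than at E14.5, while *Mycn* was at 12.9 CPM. In endothelial cells *Hmga2* was at 211 and 94.4 CPM and *Igf2bp1* at 189 and 61.1 CPM at E11.5 and E14.5.

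Imprinted growth genes did not share a level of change. Of 25 genes 17 were tested, with 5 lower, none higher and a median of -0.21, which became -0.01 with median-ratio scaling. *Nnat* (neuronatin) was at 601 CPM at E11.5, 75.2 CPM at E14.5 and 9.91 CPM at E16.5, *Asb4* at 119, 1.72 and 0.691 CPM, *Peg10* at 93.7, 12.8 and 8.06 CPM and *Mest* at 570, 176 and 245 CPM. *H19* was at 686 and 1179 CPM, *Meg3* at 782 and 746 CPM and *Peg3* at 1049 and 871 CPM. These 3, among the most abundant of the list, were within 2-fold between the stages. With the E11.5 cells chosen by *Msx1*, *Alx1* and *Barx1*, however, *H19* was at 1.29 (interval 1.20 to 1.38).

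Glycolytic genes stood on the lower side. All 9 tested genes had a ratio below 0, with 4 past 2-fold and a median of -0.55, and the list summed to 4410 CPM at E11.5, 2381 CPM at E14.5 and 2645 CPM at E16.5. *Eno1* (enolase) was at 285 and 87.9 CPM, *Ldhb* at 225 and 87 CPM, *Pkm* (pyruvate kinase) at 528 and 225 CPM and *Gapdh* at 1937 and 961 CPM, the last at the limit itself. With median-ratio scaling 3 of the 9 were past 2-fold. *Ldha* was at 429 and 346 CPM and *Tpi1* at 207 and 138 CPM.

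Immediate early genes, which respond within minutes to stimuli that include tissue dissociation, stood on the higher side. Of 26 genes of this and the stress response 10 were tested, with 6 higher, none lower and a median of 1.92, and 13 were higher without the detection limit. The median was 0.71 at 1000 UMIs a cell, 1.07 with 50 CPM added, 0.96 over all 26 genes and 0.89 between cells without cell cycle UMIs, and the whole list summed to 3959 CPM at E11.5 and 3947 CPM at E14.5. *Fos* was at 15.8 CPM at E11.5, 301 CPM at E14.5 and 627 CPM at E16.5, *Egr1* at 6.24, 121 and 264 CPM and *Jun* at 84.2, 393 and 537 CPM. The heat shock gene *Hspa1b*, whose reads may be split with its near copy *Hspa1a*, was at 3.22, 77.8 and 115 CPM, while the constitutive chaperones *Hspa8* (1896 and 1303 CPM) and *Hsp90aa1* (1650 and 941 CPM) were within 2-fold. *Fos* differed in other cells as well, at 66.7 and 339 CPM in endothelial cells. A difference in the handling of the tissues and a difference in the embryo cannot be told apart here.

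Globin genes, made by red blood cells, differed in type between the stages. The adult genes *Hbb-bs* (27.4 and 2906 CPM), *Hbb-bt* (56.4 and 1260 CPM), *Hba-a1* (241 and 1882 CPM) and *Hba-a2* (127 and 1417 CPM) were higher at E14.5, and the embryonic *Hbb-bh1* (206 and 7.61 CPM) and *Hba-x* (504 and 225 CPM) lower. The embryonic *Hbb-y*, the most abundant globin gene at E11.5 (1068 CPM), was not lower, with a log2 ratio of 0.32, within 2-fold. The adult α-globin genes and the adult β-globin genes are near copies, so the split within each pair is uncertain. A globin UMI was found in 87.1% of mesenchymal cells at E11.5 and 83.1% at E14.5 at 2000 UMIs.

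Other cells of the same matrices gave a measure of what the mesenchyme shared with them. Of the 155 genes higher in E14.5 mesenchyme, 48 were at least 2-fold higher in endothelial cells (45 cells at E11.5, 90 at E14.5) and 10 lower, with a median log2 ratio of 0.64, against -0.03 over all 2918 genes, of which 231 (7.92%) were higher and 266 (9.12%) lower. In immune cells (45 and 106 cells) 38 were higher and 9 lower, with a median of 0.56, against -0.02 over all genes, of which 232 (7.95%) were higher and 302 (10.3%) lower. These cells were few, and the interval of the ratio lay above 0 for 26 of the 155 genes in endothelial and 29 in immune cells. Of the 116 genes lower in mesenchyme, 34 were lower and 8 higher in endothelial cells (median -0.42), and 35 lower and 5 higher in immune cells (median -0.52). Part of the called genes therefore stood on the same side in cells of other lineages from the same libraries, *Fos* and *Hmga2* among them. *Nr2f1*, *Barx1*, *Postn* and *Sostdc1* were at 22.2 CPM or less in the endothelial cells of both stages, and for them no such reading was possible.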

How the data were processed

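Cells of 3 stages were sequenced with the 10x Genomics 3′ chemistry. The deposited values are raw UMI counts per gene and cell, which the authors made with Cell Ranger 4.0.0 on the mouse build mm10 per the submitters' processing notes. The annotation used to place genes here was GENCODE vM21 on GRCm38, another release than the one counted on. The labels tie several samples to each matrix but the barcodes carry no sample mark, so the matrix was the sample, and no test, p-value or error between replicates was computed.

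The counts were processed in Python 3.11.15 with numpy 2.4.6, scipy 1.17.1, pandas 2.3.3 and scanpy 1.11.5. A cell needed 700 genes and no more than 20% of UMIs from mitochondrial genes, the marker definition was applied, each cell was thinned to 2000 UMIs and the counts were summed by stage. Counts were scaled to CPM over all genes, and log2 ratios were taken after adding 10 CPM, which understates the ratio of genes at low levels. Genes needed a UMI in 10% of the cells of either stage and were called at a 2-fold difference. Exact Poisson intervals, their combination for ratios and exact Clopper-Pearson intervals for shares were at 95%. The steps were tested on simulated counts.

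Endothelial, immune and erythroid cells for comparison came from the same matrices by their own markers. Scrublet marked 0 of 6573 and 0 of 6091 cells as doublets and so gave no usable call, and leaving out the cells with its 5% highest scores was an alternative. Genes were named by rule as the 15 of largest and 15 of smallest ratio (without predicted genes and markers of other cells) and up to 3 members of each of 33 gene lists in each direction, and other members were named for their role after their values were seen. The members and lists were chosen with earlier results of these data known. The list symbols Leprel1, Zac1, Aldoa and Cyr61 matched no single gene. Promoter sequences came from RefSeq. A few genes are not reported here.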

Additional observations from a re-analysis of the deposited data

Results flagged for a closer look

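Sex-linked genes were left out of the comparison, and they held signal. *Ddx3y*, a Y-linked gene, had 165 UMIs in the E14.5 mesenchymal cells at 2000 UMIs a cell (23.7 CPM, in 4.37% of cells) and 0 in those of E11.5, and without thinning the E11.5 cells again had 0, against 373 UMIs in the E14.5 and 300 in the E16.5 cells. The Y-linked genes *Eif2s3y*, *Uty* and *Kdm5d* had 76, 51 and 37 UMIs at E14.5 and 0 at E11.5, while *Xist*, made from the inactive X chromosome of females, was at 940 CPM at E11.5 and 1366 CPM at E14.5. The labels do not give the sex of the embryos, and its part in the autosomal differences was not tested.

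*Bgn*, the X-linked gene of the collagen-binding proteoglycan biglycan, had a log2 ratio of 2.64, with levels of 24.2, 204 and 166 CPM in the order of the 3 stages and a UMI in 4.67% and 32.5% of cells at the first 2 stages. Of 102 X-linked genes that met the detection limit, 2 (1.96%) were at least 2-fold higher and 9 (8.82%) at least 2-fold lower, against 5.31% and 3.98% of the autosomal genes, with a median log2 ratio of -0.22.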

How the results depend on the processing

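No paired analysis was possible because each stage was 1 matrix, so that replicate numbers in the labels belong to no column, and no replicate could be left out. Of the 155 genes higher and 116 lower at E14.5, the counts became 85 and 75 at 1000 UMIs per cell (1516 genes tested), 234 and 201 without thinning, 90 and 45 with 50 CPM added, 364 and 215 with no filter beyond 1 count, and 60 and 21 at a 4-fold threshold. With a UMI in at least 5% of cells 256 genes were higher, and with median-ratio scaling 77 were lower. Between cells without a UMI of the first 10 cell cycle genes (89 at E11.5 and 1175 at E14.5), 305 genes were higher and 417 lower, 122 of the 155 and 80 of the 116 remained past 2-fold on the same side, and 1 and 7 had the opposite sign. With the E11.5 cells chosen by *Msx1*, *Alx1* and *Barx1*, *Barx1* itself had a log2 ratio of 0.56, reversed because those cells were chosen without a *Barx1* UMI. A second random draw, 1 CPM added, stricter marker or quality limits, a total without ribosomal, mitochondrial and globin genes, and removal of high doublet scores left both counts within 1.5 times. Both genes and cells are limited by depth, since a gene near the detection limit rests on about 10% of cells with a UMI.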
